A study of Drosophila melanogaster with 33 samples.

Results

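Transfer RNA (tRNA) genes are the 295 genes on the chromosome arms of *Drosophila melanogaster* whose symbol starts with tRNA: in the Ensembl annotation of the dm6 build. They were taken from 18277 arm genes in all, transposable elements left out, and 5 of them are annotated as pseudogenes. For each gene, the summits of Lola-I peaks within 200 bp of its 5′ end were counted, and genes with the transcription start site (TSS) of an RNA polymerase II (Pol II) gene within 500 bp were kept apart. Pol II genes here are protein-coding, long non-coding RNA and microRNA precursor genes. The study used ChIP-seq, which pulls down a protein with an antibody and reads the DNA fixed to it, on embryos of several ages and genotypes, in 33 samples of 12 groups. The values come from 1 group, OregonR wild-type embryos aged 14 to 17 h, precipitated with a custom rabbit polyclonal antibody against Lola-I in 2 replicates, each with its own peak list. The other 31 samples, which include GAF, Rpb3 and WCE libraries, ORC4 (a Lola-I mutant) and Lola-I rescue embryos and 2 to 4 h embryos, were not analysed here. Genotypes, ages and targets were therefore not compared, and nothing in the labels says whether the replicates came from separate collections of embryos.

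Transfer RNA genes are transcribed by RNA polymerase III (Pol III). Their promoter lies inside the gene, in an A box near the 5′ end and a B box near the 3′ end, which are bound by TFIIIC, and TFIIIC places TFIIIB on the DNA just upstream of the start. Lola-I is one of the many isoforms of *lola* (*longitudinals lacking*), a family of BTB domain proteins most of which carry zinc fingers. The title of the series names Lola-I as a factor of Pol II promoters, so Pol III genes show where its peaks lie beside another kind of promoter.

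The peaks at tRNA genes lay in front of the gene, in sequence that differs from copy to copy, and the letters are therefore shown first for genes that had a summit in both replicate lists. Each sequence is the 150 bases that end just before the 5′ end, in the direction of the gene, read from RefSeq Release 6 (dm6). The word AAAGCT, or its reverse complement AGCTTT, is in capitals. That word was taken from earlier results on these same lists, where it was frequent at Lola-I peaks, so its presence is a description of these sites.
tRNA:Tyr-GTA-1-9 (chr2L:7711326-7711475, plus strand): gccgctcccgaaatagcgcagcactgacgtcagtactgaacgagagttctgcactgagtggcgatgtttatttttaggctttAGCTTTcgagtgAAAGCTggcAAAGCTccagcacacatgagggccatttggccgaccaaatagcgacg
tRNA:Asp-GTC-1-6 (chr2L:8619878-8620027, plus strand): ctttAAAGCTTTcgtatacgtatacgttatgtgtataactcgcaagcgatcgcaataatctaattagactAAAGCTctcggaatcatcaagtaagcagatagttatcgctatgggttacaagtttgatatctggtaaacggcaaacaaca
tRNA:Pro-AGG-1-2 (chr2L:14598709-14598858, plus strand): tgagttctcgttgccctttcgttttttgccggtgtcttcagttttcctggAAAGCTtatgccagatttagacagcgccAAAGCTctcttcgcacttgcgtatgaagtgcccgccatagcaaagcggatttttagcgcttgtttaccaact
tRNA:Ala-AGC-2-11 (chr3R:19790822-19790971, plus strand): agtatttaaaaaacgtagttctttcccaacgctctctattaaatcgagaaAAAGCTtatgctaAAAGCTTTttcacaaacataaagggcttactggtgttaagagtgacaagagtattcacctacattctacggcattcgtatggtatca
Each of these 4 windows holds the word 2 or 3 times, matches on both strands and overlapping ones counted. The other 3 both-list genes are not printed. In the 201 bp around their replicate 2 summits each holds the word once, and tRNA:Thr-AGT-2-1 does not hold it in the 200 bp upstream of the gene. The gene that follows the third window, tRNA:Pro-AGG-1-2, is shown with its A box and the B box core (GTTCNANNC) in capitals, because other copies in the genome have the same letters.
tRNA:Pro-AGG-1-2 (chr2L:14598859-14598930, plus strand): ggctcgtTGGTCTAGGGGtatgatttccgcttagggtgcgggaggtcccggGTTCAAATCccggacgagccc
An identical copy, tRNA:Pro-AGG-1-1, had no summit within 200 bp in either list, and neither the word nor its reverse complement occurs in the same window upstream of it. The word alone does not separate the copies, since tRNA:Pro-AGG-1-6, also identical and without a summit, holds it once in that window.
tRNA:Pro-AGG-1-1 (chr2L:14495728-14495877, plus strand): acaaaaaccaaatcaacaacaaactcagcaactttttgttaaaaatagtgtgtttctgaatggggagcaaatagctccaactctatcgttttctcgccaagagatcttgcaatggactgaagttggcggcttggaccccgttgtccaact
Genes with a summit in the replicate 2 list alone include some with the word, as tRNA:Gly-GCC-1-3, and some without it, as tRNA:Thr-AGT-1-7.
tRNA:Gly-GCC-1-3 (chr2L:7872699-7872848, plus strand): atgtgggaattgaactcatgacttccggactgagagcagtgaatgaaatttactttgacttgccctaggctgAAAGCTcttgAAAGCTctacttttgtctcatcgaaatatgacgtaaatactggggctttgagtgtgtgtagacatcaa
tRNA:Thr-AGT-1-7 (chr3R:19802540-19802689, plus strand): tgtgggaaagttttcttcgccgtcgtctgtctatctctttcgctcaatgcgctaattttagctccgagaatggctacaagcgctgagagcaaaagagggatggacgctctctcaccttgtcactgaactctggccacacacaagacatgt

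A minority of the tRNA genes had a Lola-I summit at their 5′ end. In the replicate 1 list, 7 of the 295 genes had a summit within 200 bp of the 5′ end, or 2.37% (95% Wilson interval 1.15 to 4.82%). In the replicate 2 list, 29 genes had one, or 9.83% (6.93 to 13.8%). All of the 7 genes of replicate 1 were among the 29 of replicate 2, so 7 genes had a summit in both lists, 22 in replicate 2 alone and 266 in neither. Of all 18277 arm genes, 3.62% had a summit within 200 bp of the gene's 5′ end in replicate 1, 22.5% in replicate 2 and 3.34% in both. The share of tRNA genes was below that of all genes in each count, but only in replicate 2 did its interval leave out the share of all genes. The lists differ in length, with 1750 arm peaks in replicate 1 and 9665 in replicate 2, and hold no reads, so the depth of the libraries is unknown. The intervals cover counting only, and neighbouring tRNA genes, which share peaks and letters, are not independent.

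In replicate 2, tRNA genes had summits less often than protein-coding genes, with intervals that do not overlap. Their share was near that of non-coding RNA genes. The shares of protein-coding genes were 4.30% in replicate 1 (3.97 to 4.64%) and 27.2% in replicate 2 (26.5 to 28.0%), over 13968 genes. For non-coding RNA genes they were 1.58% and 7.57%, and for small nucleolar RNA genes 0.372% and 4.46%. Other Pol III products gave few summits. None of the 100 genes with the symbol of 5S ribosomal RNA, a part of the large ribosomal subunit, had one in either list (Wilson upper bound 3.70%). They were taken by symbol, and not all of them are annotated as rRNA genes, a label that 99 arm genes carry. These genes are repeats, and whether reads could be placed on them was not tested. Of 9 other Pol III genes (U6, 7SK and 7SL RNAs and the RNAs of RNase P and RNase MRP), 1 had a summit in replicate 2 and none in replicate 1. It was snRNA:U6:96Ac, a gene for the U6 RNA of the spliceosome, with a summit at -109 bp and a fold enrichment of 5.47.

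**Figure D1:**
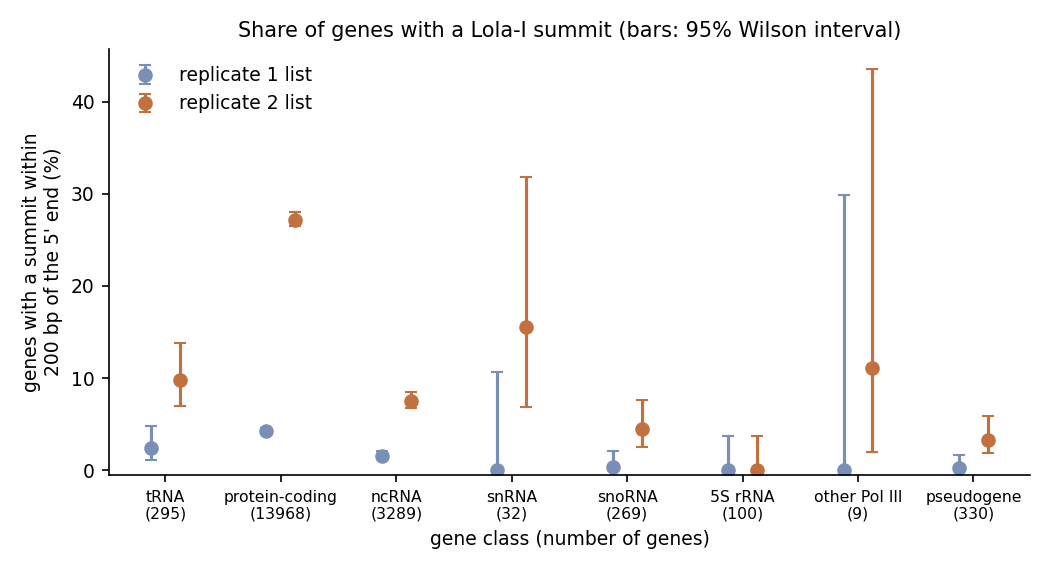
Share of genes with a Lola-I summit within 200 bp of the 5′ end (y axis, percent) by gene class (x axis, number of genes in brackets), with replicate 1 in blue, replicate 2 in orange and bars for 95% Wilson intervals. The tRNA genes, at 2.37% and 9.83%, lie below the protein-coding genes at 4.30% and 27.2%, and the 5S rRNA genes lie at 0 in both lists.

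The genes with a summit in both lists were 7, of 6 isotypes. A position is given from the 5′ end in the direction of the gene, negative upstream. A fold enrichment is the authors' own value for a peak, read here as signal over the caller's background. A rank orders the arm peaks of a list by score from 1. tRNA:Asp-GTC-1-6 (FBgn0051602) encodes a tRNA for aspartate and lies in an intron of *Sema1a*, a semaphorin gene of axon guidance, on 2L from 8620028 to 8620099. Its summit was at -126 bp with a fold of 5.87 in replicate 1 and at -147 bp with a fold of 50.2 in replicate 2, where it ranked 686. None of the other tRNA peaks within 200 bp ranked higher in replicate 2.

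tRNA:Pro-AGG-1-2 (FBgn0028912) encodes a tRNA for proline and is intergenic on 2L from 14598859 to 14598930. Its summit was at -54 bp (fold 6.99) in replicate 1 and at -47 bp (fold 37.1) in replicate 2. Its rank of 529 of 1750 was the highest of the 7 in replicate 1. tRNA:Ala-AGC-2-11 (FBgn0051215) encodes a tRNA for alanine and is intergenic on 3R from 19790972 to 19791044, with summits at -26 bp (fold 3.57) and -32 bp (fold 26.7). tRNA:Leu-CAG-1-1 (FBgn0011906) encodes a tRNA for leucine and is intergenic on 2R from 8683215 to 8683297, with summits at -80 bp (fold 4.03) and -76 bp (fold 28.7). In these genes the summits of the lists lay close to each other.

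Threonine had both-list summits at a pair of neighbouring genes on the minus strand of 2R. tRNA:Thr-AGT-2-1 (FBgn0050298; 7069970 to 7070043) had summits at -172 bp (fold 4.82) and -195 bp (fold 33.6). tRNA:Thr-AGT-1-2 (FBgn0050299; 7070760 to 7070833), inside a non-coding exon of *CG12831*, had summits at -6 bp (fold 4.21) and -31 bp (fold 22.2). Each of the pair had a peak of its own. The last of the 7, tRNA:Tyr-GTA-1-9 (FBgn0012018; 2L, 7711476 to 7711661), encodes a tRNA for tyrosine, has an intron and overlaps a coding exon of *Ntl* on the same strand. Its summits were at -45 bp (fold 2.82) and -111 bp (fold 14.7), and the nearest *Ntl* TSS is 11 bp inside the tRNA gene. It is the one both-list gene with a Pol II TSS within 500 bp, and whether its peak belongs to the tRNA gene or to *Ntl* cannot be told apart.

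The peaks of these genes stood around the middle of the replicate 1 list and high in the replicate 2 list, which is longer. Their ranks ran from 529 to 1176 of 1750 arm peaks in replicate 1 and from 686 to 1437 of 9665 in replicate 2. These genes were picked for a summit in both lists, so a high place in the longer list is no separate result. In replicate 1 the 7 peaks had folds from 2.82 to 6.99 with a median of 4.21, beside 4.42 for all arm peaks, and their score percentiles within the list ran from 32.6 to 69.8. In replicate 2 the same genes had folds from 14.7 to 50.2 with a median of 28.7, beside 5.44 for all arm peaks, and percentiles from 85.1 to 92.9. The 22 genes found in replicate 2 alone rest on 19 peaks, with folds from 3.59 to 15.2, a median fold of 6.61 and a median percentile of 55.1 over these peaks. By fold, only tRNA:Pro-CGG-2-3 of the 22 was above the lowest both-list gene, and by score none was. This contrast has the same limit, since the both-list genes also had to reach the shorter list. Fold enrichments depend on the depth and background of their own library, so values are not compared between lists.

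Among the 22 genes of replicate 2 alone, the 10 with the highest scores had folds from 7.52 to 15.2. tRNA:Pro-CGG-2-3, in a non-coding exon of *not*, a gene for a histone deubiquitinase subunit, had its summit at -105 bp (fold 15.2). tRNA:Ala-AGC-2-1, in an intron of the kinase gene *nmo*, had it at -188 bp (fold 13.0), and tRNA:Gly-GCC-1-3 at -87 bp (fold 14.5). tRNA:Pro-AGG-1-3 and tRNA:Pro-AGG-1-4 point away from each other and share 1 peak (fold 11.7), at -115 and -92 bp. tRNA:Lys-CTT-1-5 and tRNA:Arg-ACG-1-4 share another (fold 7.52), at -72 and -47 bp. The others were tRNA:Pro-TGG-1-5 (-176 bp, fold 7.56), tRNA:Thr-AGT-1-4 (-88 bp, fold 7.92) and tRNA:Phe-GAA-1-2 (190 bp, fold 8.72). The last is the only gene of the 29 whose summit was downstream of the 5′ end. None of these genes has a replicate 1 summit within 200 bp, so each rests on 1 list.

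**Figure D2:**
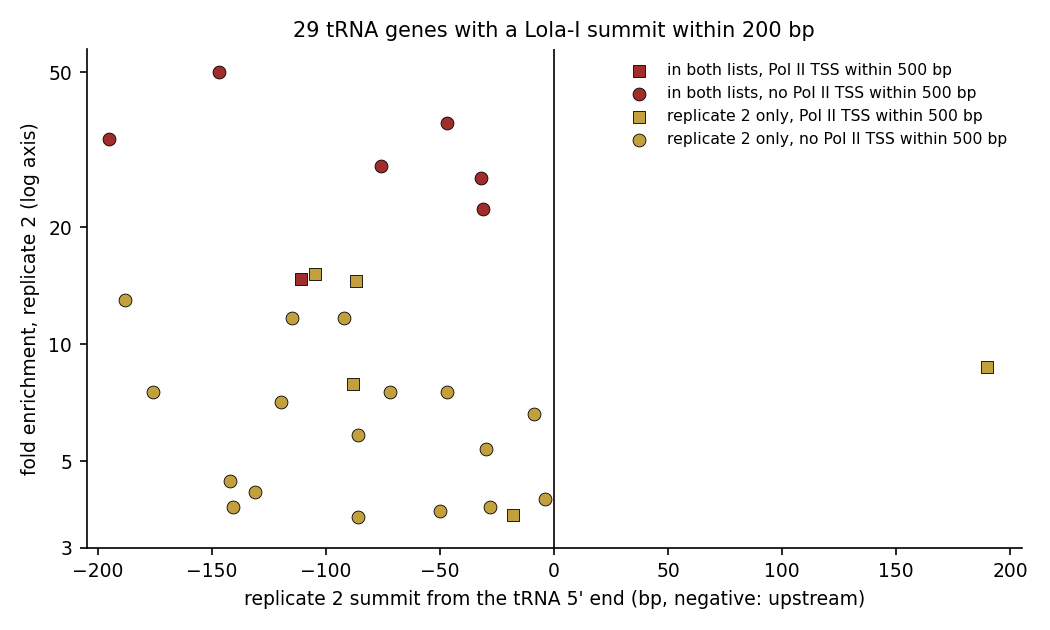
Replicate 2 fold enrichment (y axis, log scale) against the position of the replicate 2 summit from the tRNA 5′ end (x axis, bp, negative upstream) for the 29 tRNA genes, in red where replicate 1 also had a summit within 200 bp, with squares for genes that have a Pol II TSS within 500 bp. The 7 red points lie between 14.7 and 50.2, and 28 of the 29 points lie upstream.

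The summits lay upstream of the tRNA genes. In replicate 1 all 7 were upstream, between -172 and -6 bp with a median of -54.0 bp. In replicate 2, 28 of 29 were upstream, or 96.6%, with a median of -86.0 bp and quartiles at -120 and -32.0 bp. All 23 genes without a Pol II TSS within 500 bp had the summit upstream. For protein-coding genes with a summit, 78.2% were upstream in replicate 1 with a median of -51.0 bp, and 75.0% in replicate 2 with a median of -34.0 bp. Counted in bins of 100 bp, every gene-summit pair of replicate 2 within 1000 bp gave 17 pairs from -100 bp to the 5′ end and 11 from -200 to -100 bp. The first 100 bp downstream, which hold most or all of a tRNA gene, gave 0 pairs, and the next 100 bp gave 1. Bins farther out held 2 to 8 pairs each.

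Gene bodies and their upstream flanks differ in how many words occur only once in the genome. Of the 50-base words of the 200 bp upstream, a median of 100% occur once in the reference, and 272 of the 295 genes have more than 90% of such words. Over the first 71 bp of the gene the median is 0%, and 238 genes have no such word. The length of 50 was chosen here, since the read length is not given in the sources used. Upstream windows were as often of this kind at genes with a replicate 2 summit, 27 of 29, as at genes without, 245 of 266. Its part in the empty downstream bins was not tested.

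**Figure D3:**
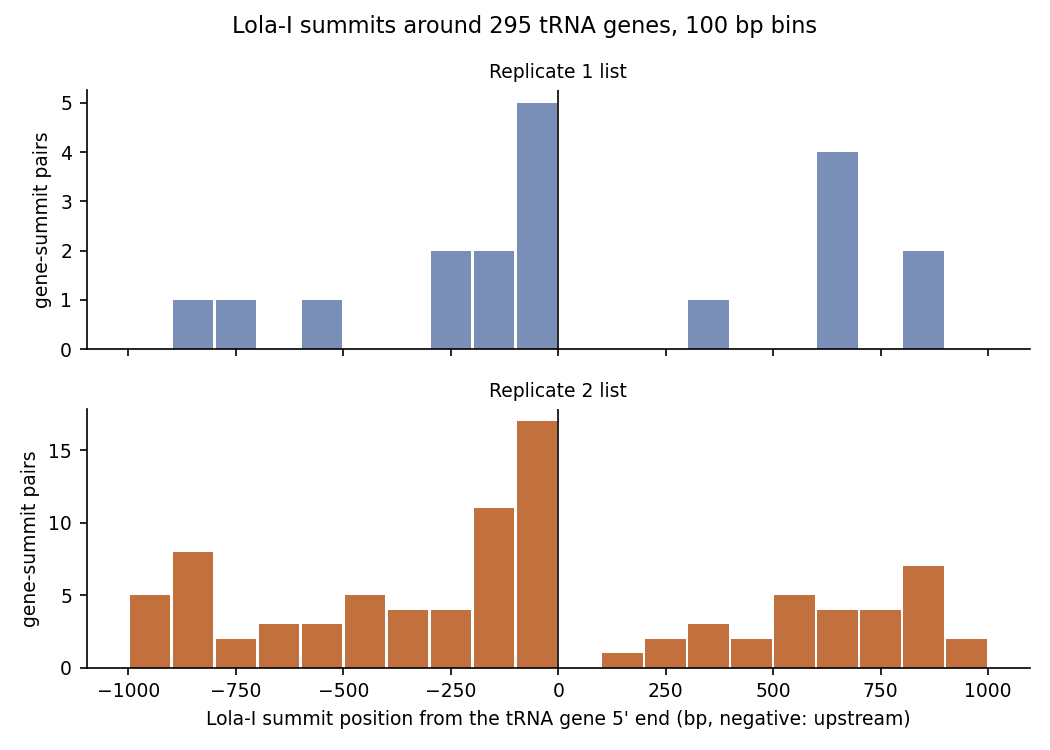
Number of gene-summit pairs (y axis) in bins of 100 bp from the tRNA 5′ end (x axis, bp, negative upstream), with the replicate 1 list above and the replicate 2 list below. In replicate 2 the bins from -200 to -100 bp and from -100 bp to the 5′ end hold 11 and 17 pairs, and the bin just downstream holds 0.

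Most of these summits lay far from any Pol II start. Of the 295 tRNA genes, 36 have a Pol II TSS within 500 bp and 259 have none. In replicate 2, 6 of the 36 had a summit, or 16.7% (7.87 to 31.9%), and 23 of the 259, or 8.88% (5.99 to 13.0%), and these intervals overlap. In replicate 1, the counts were 1 of 36 and 6 of 259, or 2.78% and 2.32%. The summit was nearer to the tRNA 5′ end than to any Pol II TSS in all 7 genes of replicate 1 and in 28 of the 29 of replicate 2. For genes with no Pol II TSS within 500 bp, this follows from the distance limits. Among genes with such a TSS, the tRNA 5′ end was nearer in the 1 gene of replicate 1 and in 5 of the 6 of replicate 2. The limits also fix this for tRNA:Pro-CGG-2-3 and tRNA:Gly-GCC-1-3 (TSS at -447 and -482 bp), and nearly so for tRNA:Gly-TCC-1-1 (-399 bp). At tRNA:Tyr-GTA-1-9 and tRNA:Thr-AGT-1-4 the TSS lies downstream (11 and 257 bp), so any upstream summit is nearer to the tRNA 5′ end. These counts are therefore no separate result. The summit lay over 1000 bp from any Pol II TSS in 6 genes of replicate 1 and 19 of replicate 2. Of the 30 Pol II genes next to the 36 tRNA genes, 12 had a summit within 200 bp of any TSS in replicate 2, or 40.0% (24.6 to 57.7%), and 3 in replicate 1. These counts include summits also counted for a tRNA gene, those at *Ntl* in both lists and at *RpL17* in replicate 2. Of all arm genes, 25.4% had a summit within 200 bp of any TSS in replicate 2, 4.56% in replicate 1 and 4.32% in both lists.

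The 6 genes with a Pol II TSS nearby differed in how close it was. *Ntl* starts 11 bp inside tRNA:Tyr-GTA-1-9, as given above. For tRNA:Phe-GAA-1-2, the summit was 115 bp from the TSS of *RpL17*, a ribosomal protein gene, which starts 305 bp downstream of the tRNA 5′ end. This is the one gene of the 29 whose summit lay nearer to the Pol II start. In the remaining 4, the summit was 342 bp or more from the nearest Pol II TSS. These were tRNA:Pro-CGG-2-3 (*CG4174*, TSS at -447 bp), tRNA:Gly-GCC-1-3 (lncRNA:CR45364, TSS at -482 bp), tRNA:Gly-TCC-1-1 (*CG31248*, TSS at -399 bp) and tRNA:Thr-AGT-1-4 (*CG31279*, TSS at 257 bp). A peak list does not assign a summit to one start or the other.

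By place in the annotation, 157 tRNA genes are intergenic, 130 lie in introns, 7 in exons outside the coding sequence and 1 in a coding exon. In replicate 2, 12 of the intergenic genes had a summit (7.64%, 4.43 to 12.9%) and 12 of the intronic ones (9.23%, 5.36 to 15.4%). Of the 7 in non-coding exons, 4 had one, at *CG12831*, *not* and, with 2 genes, *osp*. Of the 16 tRNA genes with an intron, 2 had a summit, and of the 279 without, 27 (12.5% and 9.68%). By chromosome arm, 9 of 41 genes on 2L had a replicate 2 summit (22.0%, 12.0 to 36.7%), 9 of 100 on 2R, 2 of 49 on 3L (4.08%), 8 of 79 on 3R (10.1%) and 1 of 26 on X (3.85%). Both-list genes were 3 on 2L, 3 on 2R and 1 on 3R. The intervals of 2L and 2R overlap.

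Summits were spread over isotypes. Of 22 isotype labels, 14 had at least 1 gene with a replicate 2 summit. Proline led with 5 of 17 genes (29.4%), followed by phenylalanine with 2 of 8 (25.0%) and threonine with 4 of 18 (22.2%), beside 9.83% of all tRNA genes. Of the 5 proline genes, 3 form 1 cluster on 2L and rest on 2 peaks. Of the 2 phenylalanine genes, tRNA:Phe-GAA-1-2 had its summit nearer to the TSS of *RpL17*. Glycine had 3 of 20 and leucine 3 of 22. Alanine, arginine and isoleucine had 2 each, of 17, 26 and 12 genes. Aspartate, glutamine, lysine, serine, tyrosine and valine had 1 each. The 8 labels with none were glutamate with 21 genes, asparagine with 10, tryptophan with 8, cysteine with 7, histidine, elongator methionine and initiator methionine with 6 each, and selenocysteine with 1. In replicate 1, threonine had 2 genes and alanine, aspartate, leucine, proline and tyrosine 1 each. By anticodon, the proline genes with AGG had 3 of 7, all in that cluster on 2L. The threonine genes with AGT had 4 of 9, so all threonine genes with a summit had the same anticodon. With so few genes per label, no label was set apart by a test.

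**Figure D4:**
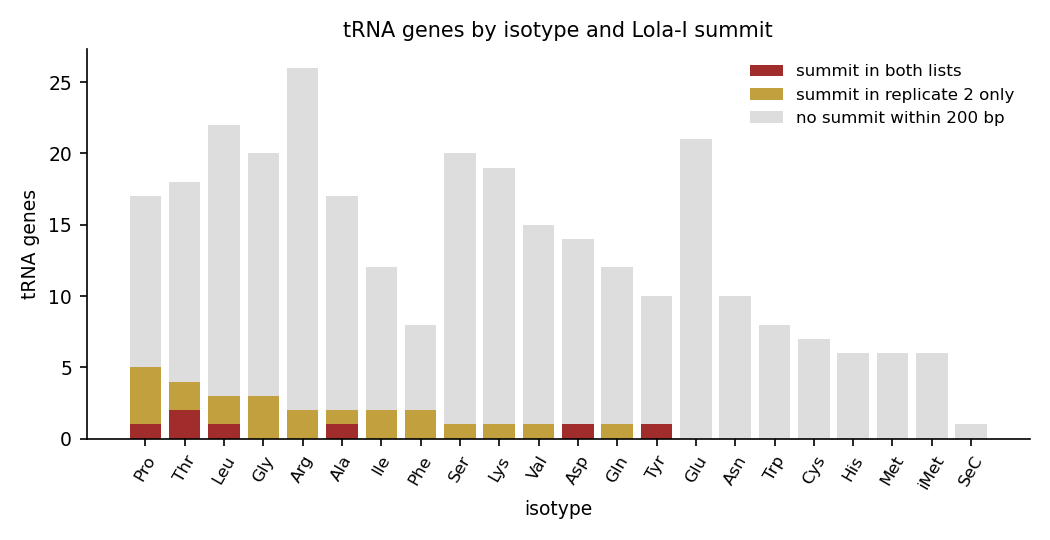
Number of tRNA genes (y axis) by isotype (x axis), with genes that had a summit in both lists in red, in replicate 2 alone in yellow and in neither in grey. Proline has 5 of 17 genes with a summit, and glutamate, with 21 genes, has none.

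Counted per gene, isolated tRNA genes had a summit more often than clustered ones, with intervals that overlap. When genes with 5′ ends within 2000 bp were joined, 92 genes stood alone and 203 fell into 70 clusters. In replicate 2, 14 of the 92 had a summit (15.2%, 9.29 to 23.9%) and 15 of the 203 (7.39%, 4.53 to 11.8%). In replicate 1, the counts were 3 and 4. The 15 genes came from 8 clusters, 3 of which also had a replicate 1 summit. Counted per cluster, 8 of the 70 thus had a summit in replicate 2, beside 14 of the 92 lone genes. In replicate 1 it was 3 of the 70 clusters beside 3 of the 92 lone genes, so there lone genes did not lead. In the cluster of 3 proline genes on 2L, every gene had a replicate 2 summit, and so did both genes of the threonine pair on 2R and both genes of the pair tRNA:Val-CAC-2-6 and tRNA:Ala-AGC-2-11 on 3R. Of the 8 clusters with 5 or more genes, 1 had summits, at 3 of the 7 isoleucine and leucine genes within *ATP8A* on 2R. The largest cluster, with 8 glutamate and initiator methionine genes on 2R, had none.

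A summit can lie between a pair of tRNA genes that point away from each other. There are 19 such pairs with 5′ ends within 500 bp, at gaps of 100 to 481 bp. In replicate 2, 4 pairs had a summit in the gap and in replicate 1 none. The gaps were between tRNA:Pro-AGG-1-3 and tRNA:Pro-AGG-1-4 (207 bp), tRNA:Lys-CTT-1-5 and tRNA:Arg-ACG-1-4 (119 bp), tRNA:Leu-CAA-2-1 and tRNA:Ile-AAT-1-4 (169 bp), and tRNA:Ser-TGA-1-1 and tRNA:Ser-TGA-2-1 (481 bp). The first 3 peaks lay within 200 bp of both 5′ ends, which is why the 29 genes of replicate 2 rest on 26 peaks. The serine peak was within 200 bp of tRNA:Ser-TGA-2-1 alone.

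Copies with the same letters differed in whether they had a summit. The 295 genes have 100 distinct gene sequences, and 43 of these are shared by 238 genes. At 15 of the shared sequences, some but never all copies had a replicate 2 summit, 23 of 118 genes. Of the 7 copies of the tRNA:Pro-AGG-1 sequence, 3 had one, of the 7 of tRNA:Thr-AGT-1 also 3, of the 11 of tRNA:Ala-AGC-2 2 and of the 12 of tRNA:Asp-GTC-1 1. As the copies match over the whole gene, the letters of the gene body do not separate those with a summit from those without.

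The upstream letters did differ among these 118 copies. The word AAAGCT, sought on both strands in the 200 bp upstream, was found at 13 of the 23 copies with a summit (56.5%, 36.8 to 74.4%) and at 14 of the 95 without (14.7%, 8.99 to 23.2%). As the word was taken from these same lists, a higher share beside summits was to be expected, so these values are a description. The intervals cover counting only, and some of the 23 copies share a peak. The word GAGAG, sought in the same way, was found at 30.4% and 25.3%. The median GC content of the same 200 bp was 40.5% and 34.5%, and its part in the difference in words was not tested. In the examples printed above, tRNA:Pro-AGG-1-2 and tRNA:Pro-AGG-1-1 are such copies.

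Over all tRNA genes the pattern was the same, and the same limit holds. AAAGCT was found upstream of 6 of the 7 both-list genes, of 10 of the 22 genes of replicate 2 alone (45.5%) and of 46 of the 266 with no summit (17.3%, 13.2 to 22.3%). Of the 200 bp windows upstream of the 18164 arm genes outside chromosome Y, 16.1% hold it. In the 201 bp centred on the replicate 2 summit, all 7 both-list genes had the word, with the middle of the nearest copy between -50 and 46 bp of the summit. Of the 26 tRNA peaks of replicate 2, 16 had it (61.5%, 42.5 to 77.6%), beside 28.9% of all arm peaks of that list. Of the 752 peaks of the list that rank between the first and the last both-list gene, 60.4% had it, and in replicate 1 it was at 66.7% of all arm peaks. GAGAG gave no single direction. It was found at 30.8% of the tRNA peaks of replicate 2 (46.3% of all arm peaks), but at 57.1% of the 7 both-list peaks of that list (52.3% of the 752 peaks of like rank). In replicate 1 it was at 57.1% of the 7 tRNA peaks and 44.3% of all arm peaks.

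Pol III promoter elements were present with and without a summit. An A box was matched in all 29 genes with a replicate 2 summit and in 91.4% of those with none. The B box core was matched in 26 of 29 and in 93.2%. Of the 3 without a match, 2 are tRNA:Ala-AGC-2 copies. A run of TTTT within 30 bp after the gene, where Pol III stops, was found in 93.1% and 95.5%. TATAA, sought from -45 to -16 bp, was found at none of the 29 genes (0 to 11.7%) and at 7.89% of the others. At the same place, 11.4% of all arm genes have it, and the interval of the 29 includes both shares.

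The limit of 200 bp left out some strong peaks. The last genes inside it in replicate 2 were tRNA:Ala-AGC-2-1 at -188 bp, tRNA:Phe-GAA-1-2 at 190 bp and tRNA:Thr-AGT-2-1 at -195 bp. The first 5 outside were tRNA:His-GTG-1-3 at -208 bp (fold 3.63), tRNA:Trp-CCA-2-5 at -240 bp (fold 11.4), tRNA:Gln-CTG-2-3 at 268 bp (fold 167), tRNA:Trp-CCA-2-2 at -271 bp (fold 8.16) and tRNA:Leu-CAA-2-3 at -276 bp (fold 136). For tRNA:His-GTG-1-3, tRNA:Gln-CTG-2-3 and tRNA:Trp-CCA-2-2 the summit was 42, 53 and 16 bp from a Pol II TSS, of *CG8490*, *CG4238* and *CG30122*. The other 2 had no Pol II TSS so near, and replicate 1 also had a summit upstream of each. At tRNA:Trp-CCA-2-5 the replicate 2 summit was 1925 bp from the nearest Pol II TSS, and the replicate 1 summit was at -290 bp with a fold of 2.32. At tRNA:Leu-CAA-2-3 (FBgn0051143; 3R, 23601333 to 23601455) the replicate 2 summit was 2697 bp from the nearest Pol II TSS and ranked 93, and replicate 1 had a summit at -268 bp with a fold of 25.6 and rank 81. The 101 bases around the replicate 2 summit of tRNA:Leu-CAA-2-3 hold the word once, as the capitals show.
tRNA:Leu-CAA-2-3 (chr3R:23601681-23601781, minus strand): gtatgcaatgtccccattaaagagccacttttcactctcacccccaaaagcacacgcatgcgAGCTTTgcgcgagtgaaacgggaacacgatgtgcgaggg

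Farther out, the nearest replicate 2 summit lay at a greater median distance for tRNA genes than for other genes. The median distance from the 5′ end to the nearest replicate 2 summit was 4.00 kb for tRNA genes, 2.62 kb for protein-coding genes and 3.07 kb for all arm genes outside Y. In replicate 1 these medians were 21.3, 23.6 and 25.2 kb, so there the median of tRNA genes was the smallest.

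The protein-coding genes of the tRNA pathway were counted by any annotated TSS, for which the shares of all genes are given above as 25.4% and 4.56%. Of 35 genes for aminoacyl-tRNA synthetases, the enzymes that load tRNAs with amino acids, 14 had a replicate 2 summit (40.0%, 25.6 to 56.4%) and none a replicate 1 summit. The lower end of this interval is just above the 25.4% of all genes, and it includes the 27.2% of protein-coding genes counted by their 5′ end. The strongest of them were *HisRS* (fold 12.4, at -56 bp) and *ArgRS-m* (fold 10.6, at -42 bp), which load histidine and, in mitochondria, arginine. Of 10 genes for Pol III subunits, 1 had a replicate 2 summit, *Polr3F* (-180 bp, fold 4.13). *Brf*, *Bdp1* and *Trf*, which encode parts of or partners in TFIIIB, had none in either list.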

How the data were processed

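Embryos were fixed with formaldehyde and the chromatin was sonicated and immunoprecipitated, per the labels' protocols. Bowtie 1.0.0, CASAVA 1.8.2 and the dm6 build are named, without a role, in the submitters' processing notes. The peak caller, its control, its filters and the read length are not given in the sources used here. The authors deposited 1 peak list per replicate, with 10 columns and no header. The columns were read here in the order of narrowPeak, a common format for peak lists. In all 1759 peaks of replicate 1 and 9674 of replicate 2, the deposited score was the −log10 p-value multiplied by 10 and cut to a whole number. In this reading, the authors' fold enrichment is a linear ratio of signal to estimated background at each peak, and −log10 p-values and q-values stand beside it. Peak lists give no depth, so the precision of 1 peak is unknown.

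Peaks on the chromosome arms were used, 1750 and 9665, which left out 9 in each list. Genes came from Ensembl release 115 (BDGP 6.54), and all 295 tRNA genes have the same start, end and strand in RefSeq Release 6. Analyses used Python 3.11.15, NumPy 2.4.6, SciPy 1.17.1, pandas 2.3.3 and matplotlib 3.10.9. The search for the nearest summit was checked against planted summits. Shares carry 95% Wilson intervals. No test was made, since the peaks come from 1 group of 2 replicates.

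The members, the lists and the words were chosen with earlier results of these data known. Named were tRNA genes with a summit in both lists, the 10 with the highest score in replicate 2 alone, the 5 just beyond 200 bp, the isotypes and clusters with the most and fewest summits, and Pol II genes within 500 bp of a named tRNA gene. Other genes were named after their values were seen. Alternatives were other distances, the peak interval, stronger peaks, equal list lengths, each list alone, the gene body, no pseudogenes, other Pol II definitions, other cluster joins and any TSS for all genes. The symbol l(2)37Cg was not used here. Samples outside this group, 31 in all, were not used.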

Additional observations from a re-analysis of the deposited data

How the results depend on the processing

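Of 41 alternatives for 10 counts, 30 stayed within 1.5 times the reported count and 11 did not. The reported counts were 7 tRNA genes in replicate 1, 29 in replicate 2 and 7 in both. Summits within 100 bp gave 17 genes in replicate 2 and 4 in both lists. Summits within 1000 bp gave 17, 70 and 17 genes. Peak intervals within 200 bp gave 11 in replicate 1 and 11 in both. The higher-scoring 50% of each list gave 3 in replicate 1 and 3 in both. Cutting the replicate 2 list to the length of replicate 1, by score, gave 7 genes. Using 1 list alone in place of both gave 7 to 29 genes, so the number of genes depends on the list, and the cause of the difference between the lists was not tested. Counts of genes without a Pol II TSS nearby (6 in replicate 1, 20 to 28 in replicate 2) and of clusters with a summit (3, and 7 to 8) stayed within 1.5 times. No paired analysis was possible because the lists come from 1 group and no fit was made. Without reads, a gene with no peak cannot be told apart from one whose signal was too shallow to call.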

Other observations

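The mitochondrial genome, outside the chromosome arms, holds 22 further tRNA genes. Replicate 1 had 2 peaks there, each with a fold enrichment of 1.94, and the summit of 1 of them lay within 200 bp of the 5′ end of a mitochondrial tRNA gene. Replicate 2 had 0 peaks there.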
